A study of Mus musculus with 39 samples.

Results

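Glycine is, beside GABA, a fast inhibitory transmitter of the auditory brainstem and midbrain, and 4 genes of its synapse are described here: Glra1, Glra3, Glrb and Slc6a5. They were chosen by name, as the genes whose symbol stands alone for a probe set (a group of short probes that together report 1 transcript). Each of the 4 had 1 such probe set, so 4 of the 22626 probe sets tested, and 4 of the 12393 genes named by a single symbol, are covered. RNA came from the inferior colliculus, where the ascending auditory pathways of the midbrain converge, of 39 mice, each on an Affymetrix MOE430A array of its own. There were 4 groups: 8 young adult controls, 4 of each sex, with good hearing, then 17 middle-aged mice, 10 of them female, whose hearing was also good, then 9 with mild presbycusis (hearing loss with age; 4 female) and 5 with severe presbycusis (4 female). All belonged to the inbred strain CBA/CaJ, were bred in house and aged normally without treatment. The sources used here give no ages, so age and hearing loss cannot be told apart in the presbycusis groups.

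The glycine receptor is a chloride channel opened by glycine. Its alpha subunits, among them those encoded by Glra1 and Glra3, bind the transmitter, and the beta subunit, encoded by Glrb, ties the receptor to the scaffold protein gephyrin beneath the synapse. Mutations of Glra1 (spasmodic) and Glrb (spastic) give mice an exaggerated startle and stiffness. Slc6a5 encodes GlyT2, the transporter with which glycine-releasing nerve endings take glycine back up. Much of the glycinergic input of the inferior colliculus comes from neurons in lower auditory nuclei, whose cell bodies, where most of their mRNA lies, are outside the dissected tissue.

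No member passed the test in any comparison of the groups. The 4 probe sets differed widely in brightness. By mean signal, that of Glrb was brighter than 95.8% of all probe sets tested, that of Slc6a5 than 40.4%, that of Glra1 than 31.7% and that of Glra3 than 14.5%. Signals of different probe sets depend on their probes, so these positions do not rank the transcripts by abundance. The spread between mice of 1 group and sex was small for Glrb, with a residual standard deviation (SD) of 0.24 on the log2(intensity + 16) scale. It was 0.36 for Slc6a5, 0.60 for Glra1 and 0.69 for Glra3, wider than that of 84.8% and 93.0% of all probe sets for the last 2. The values come without detection calls, so whether the dim Glra3 probe set lies above background was not tested.

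Of the receptor subunits, Glra1 encodes the alpha 1 subunit, the main alpha subunit of adult glycinergic synapses. Its median intensity in young controls was 74.5 (range 12.9 to 121), in middle-aged mice 101 (range 18.6 to 163), in mild presbycusis 111 (range 71.5 to 167) and in severe presbycusis 130. The 5 severe mice had 92.5, 144, 58.5, 130 and 154. The medians thus stood in the order of the groups, but all ranges overlapped, and 1 young mouse, at 12.9, lay far below the other 7, which had 60.6 to 121. On the log2(intensity + 16) scale, mild minus young was 0.61 (standard error, SE, 0.28, 95% interval 0.04 to 1.18), and 9 of 9 mild mice lay above the young mean. Its limma p of 0.037 before adjustment became 0.714 after Benjamini-Hochberg adjustment over all probe sets, so the difference did not pass. Severe minus young was 0.52 (SE 0.34, interval -0.15 to 1.20, adjusted p 0.779 by limma), with 4 of 5 severe mice above the young mean. Middle-aged minus young was 0.32 (SE 0.25, interval -0.19 to 0.82, adjusted p 0.998). Without the low mouse, young replicate 8, the Glra1 differences from young were 0.39 in mild, 0.34 in severe and 0.12 in middle-aged mice, and no member had an unadjusted p under 0.05 in mild against young mice. Neighbouring groups in the order, mild against middle-aged (0.29, SE 0.24) and severe against mild (-0.08, SE 0.33), did not differ beyond their spread.

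Glra3 encodes the alpha 3 subunit, which is known for its part in pain processing in the mouse spinal cord. Its medians were 22.6 in young controls (range 8.01 to 54.8), 27.9 in middle-aged mice (range 11.4 to 106), 35.1 in mild presbycusis (range 10.3 to 159) and 34.6 in severe presbycusis, where the 5 mice had 40.8, 36, 25.3, 34.6 and 9.88. The mild group was the most spread, and all 5 severe mice lay within the young range. Mild minus young was 0.47 (SE 0.32, interval -0.18 to 1.12), middle-aged minus young 0.32 (SE 0.28, interval -0.25 to 0.90) and severe minus young 0.13 (SE 0.38, interval -0.64 to 0.91). The adjusted p-values of Glra3 were 0.846, 0.998 and 0.968 by limma. The intervals are wide: for severe against young they hold every fold change between 0.64 and 1.88. Single mice moved these values: mild minus young was 0.27 without mild replicate 6, middle-aged minus young 0.21 without young replicate 3, and severe minus young between 0.015 without young replicate 3 and 0.32 without severe replicate 5.

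Glrb, the beta subunit shared by the synaptic receptors, was the brightest and the most even of the 4 probe sets. Its medians were 2875 in young controls (range 1993 to 3973), 3668 in middle-aged mice (range 2611 to 4470), 3414 in mild presbycusis (range 2706 to 4231) and 3209 in severe presbycusis, where the 5 mice had 3209, 3418, 2684, 3095 and 3874. The young median was the lowest and the middle-aged one the highest, and the ranges of all groups overlapped. Middle-aged minus young was 0.26 (SE 0.11, interval 0.05 to 0.47), and 15 of 17 middle-aged mice lay above the young mean. Its p of 0.0177 by limma was 0.936 after adjustment over all probe sets. Mild minus young was 0.20 (SE 0.12, interval -0.04 to 0.44) with 8 of 9 mice above the young mean, and severe minus young was 0.18 (SE 0.14, interval -0.11 to 0.46) with 4 of 5. Their adjusted p-values were 0.819 and 0.844. Both presbycusis groups lay slightly below the middle-aged mice, mild by -0.06 (SE 0.10) and severe by -0.08 (SE 0.13), and neither difference passed. Without young replicate 2, the lowest mouse, Glrb differed from young by 0.18 in middle-aged, 0.12 in mild and 0.09 in severe mice. Severe minus young was 0.11 without severe replicate 5. Without young replicate 2, or without young replicate 3, no member had an unadjusted p under 0.05 by limma in middle-aged against young mice. For Glrb the intervals were narrow enough to bound the change: severe against young lay between 0.93-fold and 1.38-fold, mild against young between 0.97-fold and 1.35-fold, and middle-aged against young between 1.03-fold and 1.39-fold. These intervals are not adjusted for the number of probe sets tested.

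**Figure D1:**
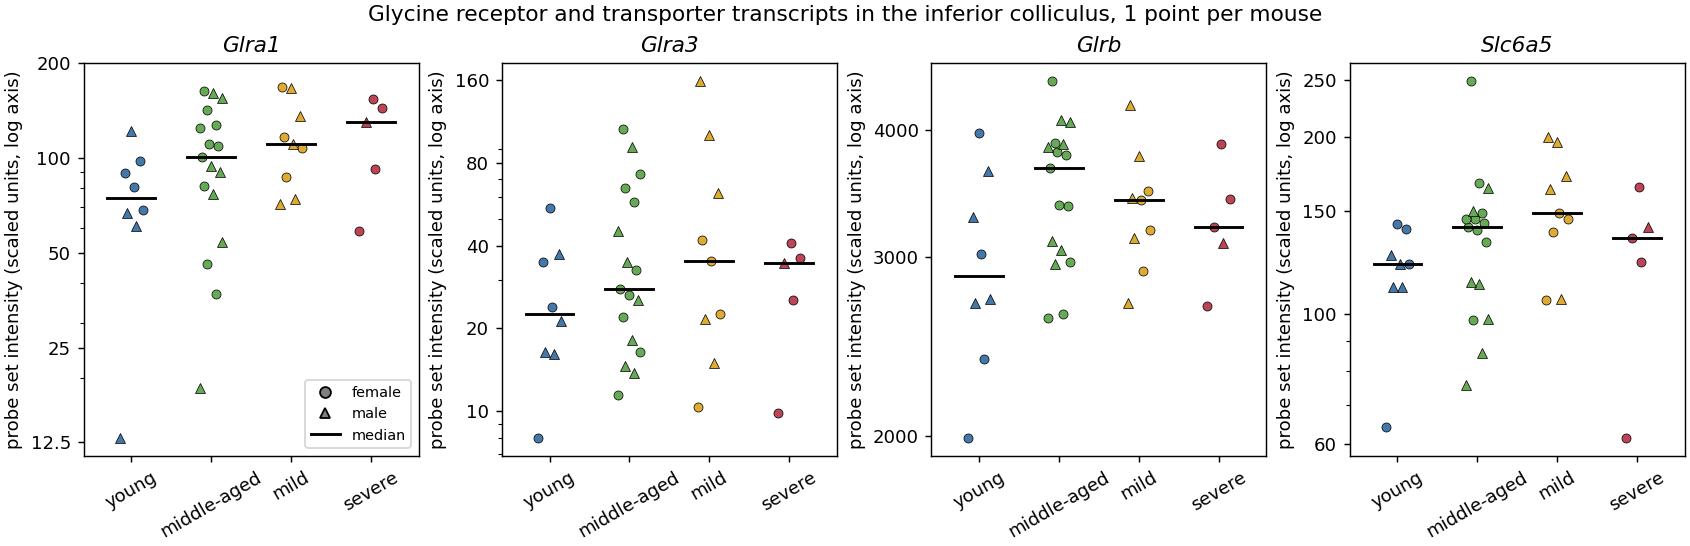
Probe set intensity (vertical log axis, in the deposited scaled units) of Glra1, Glra3, Glrb and Slc6a5 in each of the 39 mice, by group from young to severe, with circles for females, triangles for males and a line at the median of each group. Every group overlaps every other in all 4 panels, and the lowest Glra1 value, 12.9, and the lowest young Slc6a5 value, 64.2, stand apart from the other young mice.

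Slc6a5, the neuronal glycine transporter, had medians of 122 in young controls (range 64.2 to 143), 141 in middle-aged mice (range 75.8 to 250), 148 in mild presbycusis (range 106 to 200) and 135 in severe presbycusis. The 5 severe mice had 165, 135, 61.6, 141 and 122. The mild group was the highest and the young group the lowest by median, with overlap of all ranges. Mild minus young was 0.34 (SE 0.18, interval -0.02 to 0.71), with 7 of 9 mild mice above the young mean, and its p of 0.0636 was 0.769 after adjustment by limma. Middle-aged minus young was 0.16 (SE 0.16, adjusted p 0.998) and severe minus young 0.03 (SE 0.21, interval -0.40 to 0.46, adjusted p 0.985). Without young replicate 3, the lowest young mouse, middle-aged minus young was 0.05 and severe minus young -0.09. Severe minus young also took the other sign without severe replicate 1, 2 or 4, and was 0.23 without severe replicate 3. In males only, middle-aged minus young was -0.07. Severe minus mild was -0.31 (SE 0.21, interval -0.74 to 0.11), and -0.11 without severe replicate 3. In whole tissue, fewer cells of a type and less RNA per cell cannot be told apart, for any of the members.

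Counted together, 0 of the 4 members were called by limma at an adjusted p under 0.05 in each of the 6 comparisons. The share of all probe sets called was 0.00442% for middle-aged against young, 0.168% for mild against young, 0.53% for severe against young, 0.11% for mild against middle-aged, 0.486% for severe against middle-aged and 0% for severe against mild mice. With shares this low, a count of 0 of 4 says nothing particular about the members. At an unadjusted p under 0.05 stood 1 member in middle-aged against young (Glrb), 1 in mild against young (Glra1) and 0 in each of the other 4 comparisons. Of all probe sets, 5.09% in middle-aged and 6.61% in mild against young mice stood under the same threshold. All 4 members had a difference above 0 in middle-aged, mild and severe mice against the same young controls, and these 3 comparisons share those controls. Of all probe sets, 49.7%, 57.1% and 44.5% were above 0, in the same order. Against young, the median of the 4 differences was 0.29 in middle-aged, 0.41 in mild and 0.16 in severe mice, where the median over all probe sets was -0.0010, 0.03 and -0.03. All 4 were below 0 in severe against mild mice, with a median of -0.20, where all probe sets had -0.05. An F-test across the 4 groups called 0 of the 4 members and 0.53% of all probe sets. The lowest adjusted F-test p of a member was 0.964, that of Glrb.

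**Figure D2:**
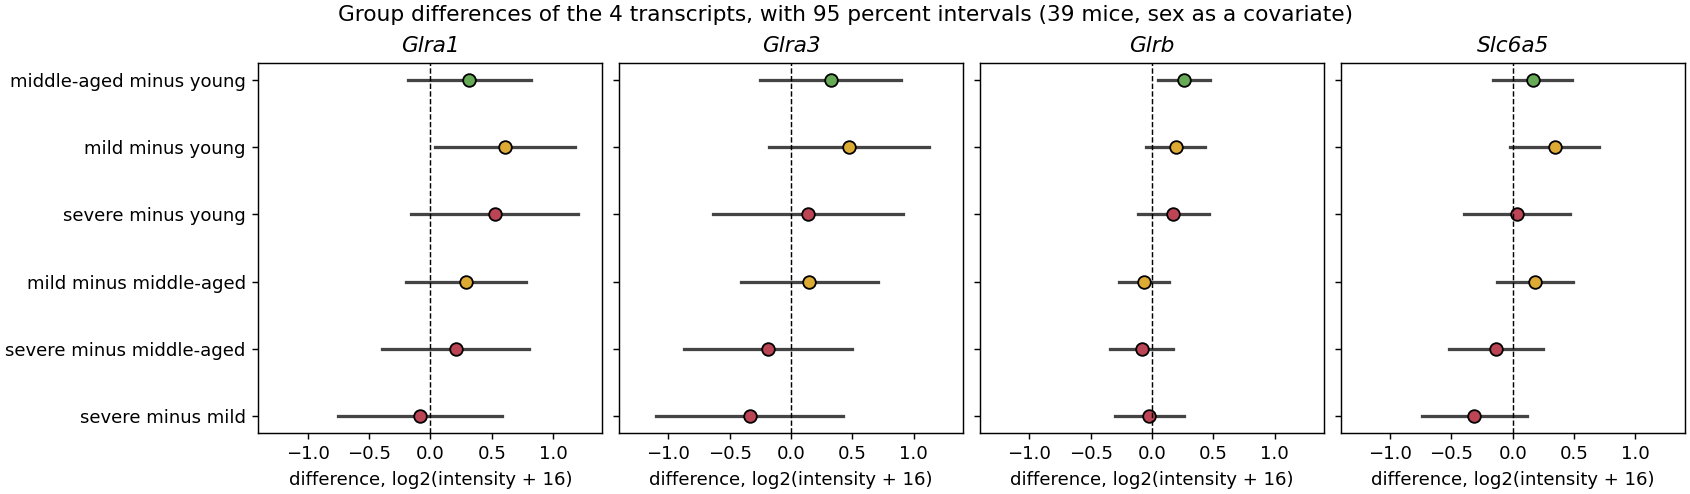
Group differences on the log2(intensity + 16) scale (horizontal axis; points, first group minus second, coloured by the first group) with 95% intervals (lines) for each of the 6 comparisons, in the fit of all 39 mice with sex as a covariate. The intervals of Glrb are the narrowest, and those of Glra1 for mild minus young (0.04 to 1.18) and of Glrb for middle-aged minus young (0.05 to 0.47) are the 2 that leave out 0 before adjustment.

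No member passed the test between males and females. Male minus female over all groups was -0.21 (SE 0.19) for Glra1, 0.07 (SE 0.22) for Glra3, 0.07 (SE 0.08) for Glrb and -0.06 (SE 0.12) for Slc6a5, with an adjusted p of 0.998 for each by limma. Thus 0 of 4 members were called between the sexes, against 0.0486% of all probe sets. In mild mice the Glra3 mean of males was 6.16 ± 1.06 (SD, n = 5) and that of females 5.38 ± 0.50 (n = 4), while young males had 5.24 ± 0.34 and young females 5.43 ± 0.66 (n = 4 each), all on the log2(intensity + 16) scale. The sex difference in mild minus that in young mice was 0.97 for Glra3 (SE 0.65, adjusted p 0.498 by limma). For Slc6a5, middle-aged males averaged 6.99 ± 0.35 (n = 7) and middle-aged females 7.35 ± 0.30 (n = 10), and the sex difference minus that in young mice was -0.42 (SE 0.29, adjusted p 0.789 by limma). No member was called in these tests, where 1.28% of all probe sets were called in mild and 0% in middle-aged mice. The severe group holds 1 male and could not be tested in this way.

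On 1 of the 39 arrays, middle-aged replicate 4, the sex markers went against the label. Labelled female, it had an intensity of 655 for the Y-linked Eif2s3y, against 1.25 to 10.6 on the arrays of the other 21 females and 297 to 1161 on those of the 17 males. For Xist, the RNA that silences 1 X chromosome in females, it had 373, against 2541 to 8424 in the other females and 238 to 495 in males. Without it, middle-aged minus young was 0.28 for Glra1, 0.33 for Glra3, 0.26 for Glrb and 0.16 for Slc6a5. Male minus female was then -0.18, 0.06, 0.07 and -0.06 for the 4 genes in the same order, and the interaction of Slc6a5 in middle-aged mice -0.44. Again 0 members were called.

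The 3 dim members followed a property of the arrays. For each array the mean log2(intensity + 16) of the 40% dimmest probe sets was taken, here called its dim signal, which ranged from 5.74 to 6.12 in young, 5.81 to 6.09 in middle-aged, 5.78 to 6.18 in mild and 5.65 to 6.07 in severe mice. After group and sex were taken out, it correlated over the 39 mice with Glra1 (Pearson r = 0.64, Spearman rho = 0.64), with Slc6a5 (r = 0.62, rho = 0.64) and with Glra3 (r = 0.46, rho = 0.40), but hardly with Glrb (r = -0.01, rho = -0.08). By 2-sided permutation tests with 100000 resamples, adjusted over these 4 relations, p for r was 8.0e-05, 0.00014, 0.0047 and 0.954, and p for rho 6.0e-05, 6.0e-05, 0.0173 and 0.616, in the same order of genes. Without the 2 arrays farthest from the median of the dim signal, r was 0.60, 0.57, 0.41 and -0.06. It was 0.64, 0.49, 0.45 and -0.02 within the 31 arrays with a plain name and 0.77, 0.92, 0.55 and -0.13 within the 8 whose deposited name carries a suffix. The members are not independent of this measure in level: the probe sets of Glra1 and Glra3 are themselves among the dimmest 40%. That of Slc6a5, brighter than 40.4% of all, stands just outside them. How many other dim probe sets follow the dim signal as strongly is not given here. The relation is therefore not shown to be particular to these 3 genes.

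Several of the mice at the ends of the ranges had arrays at the ends of the dim signal. Severe replicate 3 had the lowest dim signal of all 39 arrays (5.65) and the lowest Glra1 (58.5) and Slc6a5 (61.6) of its group. It also had the lowest Glrb (2684) of its group, though Glrb hardly followed the dim signal over all mice. Young replicate 8, with 12.9 for Glra1, had the next lowest dim signal (5.74), and young replicate 3, lowest of its group for Slc6a5 (64.2) and Glra3 (8.01), the fourth lowest (5.79). At the other end, mild replicate 6 had the highest dim signal (6.18) and the highest Glra3 of all mice (159). Other mice went the other way. Mild replicate 3 had the lowest dim signal of its group (5.78) but a Slc6a5 of 172, above the mild median of 148. Severe replicate 1 had the highest dim signal of its group (6.07) but a Glra1 of 92.5, below the severe median of 130. With the dim signal as a covariate, an alternative chosen after the data were seen, mild minus young was 0.47 for Glra1 and 0.26 for Slc6a5, severe minus young 0.63 for Glra1, and severe minus mild 0.16 for Glra1, of the other sign than before. Glrb moved little, to 0.26 for middle-aged and 0.20 for mild minus young. No member was called with this covariate. At an unadjusted p under 0.05 by limma it left 1 member each in middle-aged, mild and severe against young mice. Without the covariate the count in severe against young mice was 0.

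**Figure D3:**
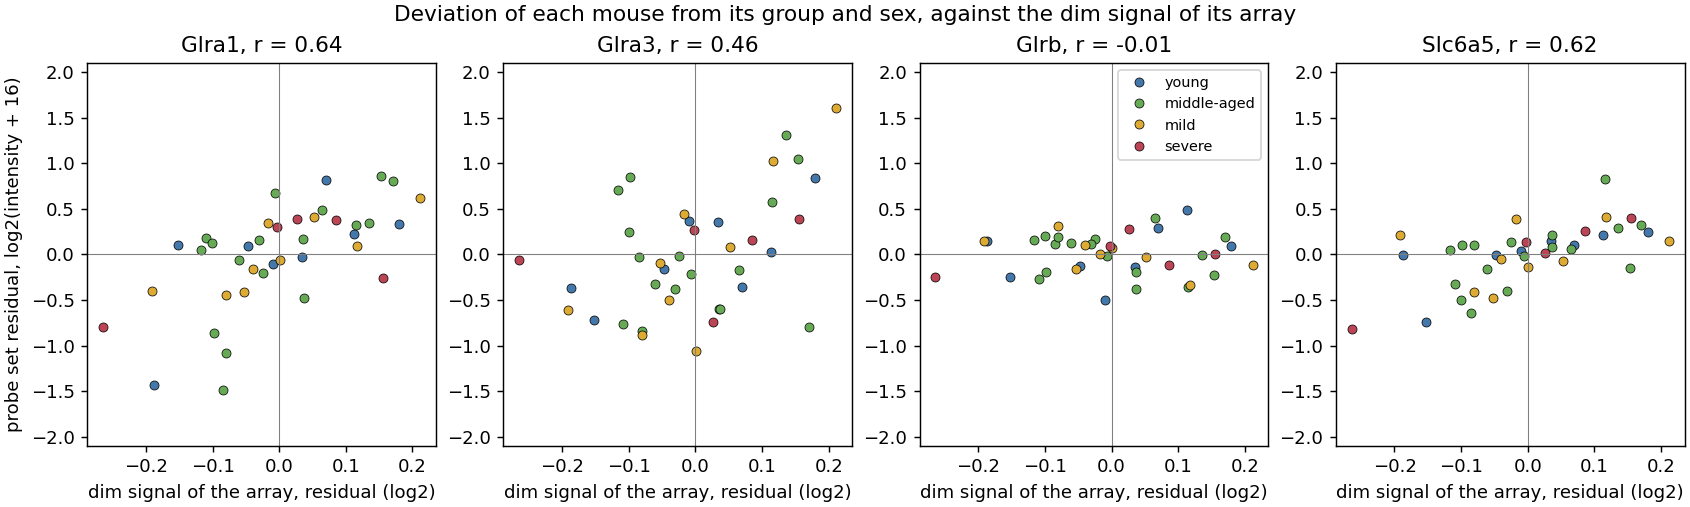
Deviation of each mouse from the mean of its group and sex for the 4 probe sets (vertical axis, log2(intensity + 16)) against the same deviation of the dim signal of its array (horizontal axis, log2), with 1 point per mouse coloured by group. The points of Glra1, Glra3 and Slc6a5 rise with the dim signal (r = 0.64, 0.46 and 0.62), while those of Glrb lie flat (r = -0.01).

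The members did not vary together between mice beyond what the test allows. Over the 6 pairs and the 39 mice, with group and sex taken out, the strongest relations were Glra3 with Slc6a5 (r = 0.35, rho = 0.40) and Glra1 with Slc6a5 (r = 0.33, rho = 0.27). Their permutation p, adjusted over the 6 pairs, was 0.123 for r in both, and 0.0659 and 0.192 for rho. Within the 31 arrays with a plain name r was 0.21 and 0.26, and within the 8 with a suffix 0.68 and 0.69; without the 2 mice farthest from the median of the first gene it was 0.33 and 0.25. With the dim signal as a covariate the relations came to 0.10 and -0.12. The alpha subunit Glra3 and the beta subunit Glrb had r = -0.29 (rho = -0.31, adjusted p 0.138 and 0.157), and Glra1 and Glrb, subunits of the same receptor, r = 0.01. With each array centred on its median, Glra3 and Glrb reached r = -0.43 with an adjusted permutation p of 0.0359.

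Genes whose deviations were most like those of a member were sought among 8485 genes in the upper 60% by mean signal, as a description. For Glrb they were Edil3 (r = 0.82), Ccdc85a (0.80), Tmlhe (0.80), Ppm1a (0.78) and Stxbp3 (0.78), whose own correlation with the dim signal was between -0.19 and 0.24. For Glra1 they were Abcg3 (0.78), Plod2 (0.73), Smad6 (0.73), Amelx (0.71) and Map2k3 (0.69). For Slc6a5 they were Nphs1 (0.77), Itpr2 (0.75), Smc3 (0.75), Cyp2c54 (0.75) and Ap4b1 (0.73), and for Glra3 Cyp11b2 (0.71), Fzd3 (0.70), Madcam1 (0.69), Hoxc6 (0.69) and Six2 (0.69). The 15 genes most like the 3 dim members all followed the dim signal as well, with r between 0.50 and 0.83. The named genes are the first 5 of many. Of the 8485 genes, 339 had r above 0.5 with Glrb, 411 with Glra1, 768 with Slc6a5 and 475 with Glra3. All these values are over 39 mice that share the arrays and their scaling.

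Markers of other cells and regions were compared with the members in 40 correlations, 10 marker lists by 4 members, with group and sex taken out. Glrb went with the mean of 7 oligodendrocyte markers (r = 0.56, rho = 0.57, adjusted permutation p 0.0036 and 0.0062). That relation was 0.59 in the 31 plain arrays, 0.62 in the 8 with a suffix and 0.55 without the 2 farthest mice, and the list itself had r = -0.14 with the dim signal. Slc6a5 went with 12 markers of hindbrain and spinal cord, most of them Hox genes (r = 0.61, rho = 0.59, adjusted permutation p 0.0016 and 0.0048). It was 0.55 in the plain and 0.81 in the suffix arrays and 0.47 without the 2 farthest, but that list followed the dim signal with r = 0.73. The summed intensity of those 12 genes was 837 to 1213 in young, 696 to 1208 in middle-aged, 879 to 1289 in mild and 714 to 1107 in severe mice, so the groups overlapped. The remaining relations past the threshold in r, those of the endothelial list with Slc6a5 (r = 0.46, rho = 0.48, adjusted permutation p 0.0351 and 0.028) and Glra3 (r = 0.45, rho = 0.37, adjusted 0.0351 and 0.151), were with a list that had r = 0.73 with the dim signal. Glra1 had r = -0.43 and rho = -0.46 with 8 astrocyte markers (adjusted permutation p 0.0524 and 0.0373), and that list had r = -0.45 with the dim signal. The relation was -0.39 in the plain and -0.86 in the suffix arrays.

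The labelled tissue was checked on markers of the midbrain and colliculus, of which 9 of 10 were measured and 0 called in any group against young controls. Their summed intensity was 3399 to 5018 in young, 3006 to 4395 in middle-aged, 3173 to 3959 in mild and 3332 to 3886 in severe mice. The markers Meis2 (mean 1681 in severe and 1595 in young mice) and En2 (761 in severe and 1030 in young mice) were bright, and Tfap2b was dim (31.2 in severe and 73.2 in young mice). Gata3 stood at 127 in severe and 96.5 in young mice. Unadjusted p was 0.0188 for Tfap2b and 0.0498 for Gata3, with adjusted p of 0.501 and 0.651 by limma. On 3 arrays, young replicate 2 and middle-aged replicates 7 and 8, cerebellar markers stood far above those on the other arrays of their groups, the sum of 10 such genes reaching 46106. Young replicate 2 had a Glrb intensity of 1993, the lowest of the 39 mice, against 2381 to 3973 in the other 7 young mice. Middle-aged replicates 7 and 8 had 3113 and 2957, within the 2611 to 4470 of the other 15 middle-aged mice, of which 4 and 2 lay lower. Without the 3 arrays, Glrb differed by 0.22 in middle-aged, 0.12 in mild and 0.10 in severe mice against young controls.

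Other genes of the glycine synapse were taken as a list of 10, of which 8 are analysed here. In severe against young mice 1 of the 8 was called, lower, and 7 of the 8 had a difference below 0, with a median of -0.19, where all probe sets had -0.03. Of all probe sets, 0.53% were called in this comparison and 44.5% had a difference above 0. The 1 partner called was Slc7a10, a transporter that carries glycine and D-serine across the cell membrane. Its 5 severe mice had intensities of 548, 701, 561, 907 and 716, and the 8 young controls ranged from 817 to 1245 with a median of 921, so that 1 severe mouse lay within the young range. For Slc7a10, middle-aged minus young was -0.28 (SE 0.09), with 16 of 17 mice below the young mean. Mild minus young was -0.30 (SE 0.10), with 9 of 9 below it. Neither passed (adjusted p 0.925 and 0.424 by limma). Severe minus middle-aged was -0.23 and severe minus mild -0.21, which did not pass either (adjusted p 0.787 and 0.9995 by limma). Severe minus young was -0.51 (SE 0.12, adjusted p 0.0216 by limma). That call was lost in 6 of 23 fits that left out a single mouse, those without young replicates 1, 2 or 3 or severe replicates 1, 2 or 3, with differences from -0.43 to -0.52 in these 6. It was also lost without the 3 arrays with cerebellar signal (-0.48, adjusted p 0.0725), with arrays centred on their median (-0.47, adjusted p 0.0607) and with only the severe and young mice in the fit (-0.54, adjusted p 0.339). Array weights ended it as well (-0.45, adjusted p 0.068). In females alone it was -0.80, and in males alone, with 1 severe male, 0.13. In severe mice the summed intensity of 10 microglial markers was 11889 to 17724, against 6383 to 8936 in young controls, and 7 of those 10 were called higher. Of 8 astrocyte markers 1 was called, Gfap, a marker of reactive astrocytes, which rose by 1.51 (SE 0.32, adjusted p 0.00793 by limma). Of these 8, 5 had a difference above 0, with a median of 0.11. The part of the microglial and astrocyte markers in the Slc7a10 difference was not tested.

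The other partners were not called in any of the 6 comparisons. Slc32a1, the vesicular transporter that loads both GABA and glycine, had a severe median of 1505 (869 to 1858) and a young median of 1623 (1446 to 4716), and differed by -0.61 (SE 0.22, adjusted p 0.353 by limma). Gphn, the gephyrin scaffold that holds the receptor in place through its beta subunit, had a severe median of 688 (556 to 854) and a young median of 896 (633 to 1199), and differed by -0.26 (SE 0.15, adjusted p 0.733). The glial glycine transporter Slc6a9 stood at 781 (665 to 898) in severe and 814 (680 to 1135) in young mice, a difference of -0.07 (SE 0.12). Glra4, a further alpha subunit gene, was dim, with 90.0 (36.4 to 147) in severe and 79.6 (38.1 to 117) in young mice, and differed by 0.18 (SE 0.31). The dynein light chains Dynll1 and Dynll2, which bind gephyrin, differed by -0.17 (SE 0.13) and -0.21 (SE 0.26), and Nlgn2, an adhesion protein of inhibitory synapses, by -0.14 (SE 0.15). In mild against young mice the 8 partners had a median of -0.18 and in middle-aged against young -0.09, with 0 called in each. Against young controls 6 of the 8 partners lay below 0 in middle-aged mice and 7 of 8 in mild mice. Thus the partners lay mostly below 0 against the young controls while the members lay above it. Of all probe sets, 49.7% lay above 0 in middle-aged, 57.1% in mild and 44.5% in severe mice. These comparisons share the same young mice, and both lists were chosen with earlier results known. No test of either list as a whole was run. Of 8 neuron markers 1 lay above 0 in severe, 3 in mild and 5 in middle-aged against young mice. Their medians were -0.24, -0.14 and 0.03, in the same order. Whether the partners shifted apart from these markers was not tested.

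**Figure D4:**
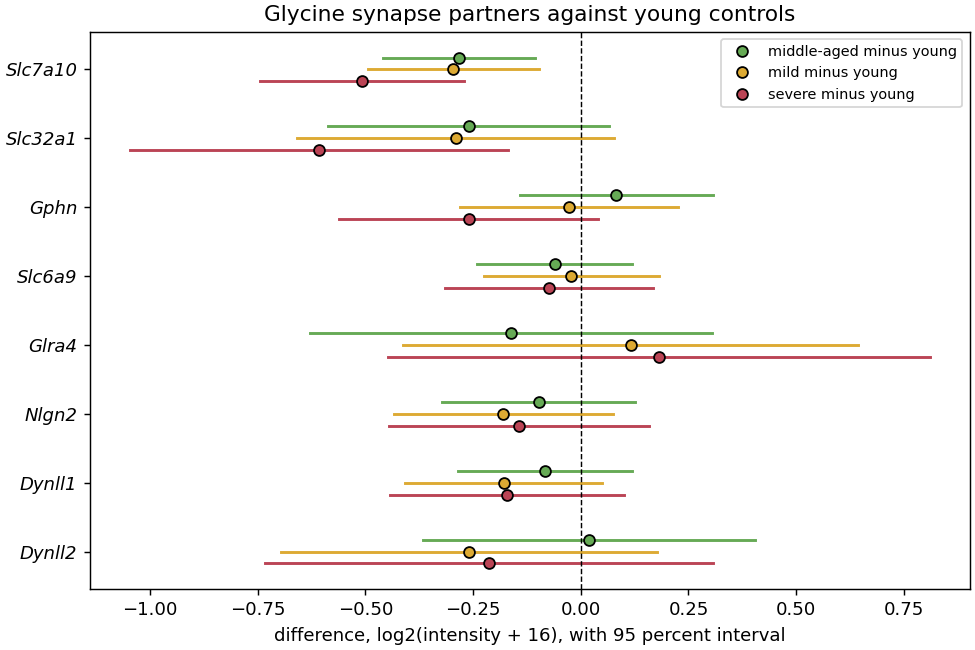
Differences from young controls on the log2(intensity + 16) scale (horizontal axis) for the 8 measured partner genes of the glycine synapse, with points for middle-aged, mild and severe mice from top to bottom and lines for the 95% intervals. Slc7a10 lies below 0 in all 3 groups, and its severe difference of -0.51 is the one that passed the test.

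No gene that makes or removes glycine passed the test. Of the 5 genes of serine and glycine synthesis (Phgdh, Psat1, Psph, Shmt1, Shmt2) 0 were called in any comparison, and the smallest p in severe against young mice was that of Psat1, 0.0647 by limma (adjusted 0.69). Psat1 differed by 0.24 (SE 0.12) and lay above the young mean in 5 of 5 mice. Of the 4 genes of the glycine cleavage system 3 were measured (Gldc, Gcsh, Dld) and 0 called, with differences of 0.13, 0.04 and 0.30 in severe against young mice. Of the 7 NMDA receptor subunit genes, whose receptors need glycine or D-serine as co-agonist, 5 were measured and 0 called, with a median of -0.02. The 4 genes that set or carry the chloride gradient had 0 calls as well. Among them Slc12a5, the chloride extruder KCC2 of mature neurons, differed by -0.27 (SE 0.20) in severe and by -0.37 (SE 0.17, adjusted p 0.687 by limma) in mild against young mice.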

How the data were processed

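Biotin-labelled cRNA from total RNA of the inferior colliculus was hybridized to 1 MOE430A array per mouse, per the labels' protocols. The deposited values are intensities on a linear scale, 1 per probe set and array. How they were computed from the scans is not stated in the labels or headers. Their mean with 2% trimmed at each end was 500.1 to 500.2 on every array, so the arrays were scaled to a common mean; whether background was subtracted is unknown. A second deposited table of RMA signals for 33 probe sets holds none of the 4 genes; it gave only the array names, 8 of which carry a suffix, and 249 other columns with values of single samples went unused.

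The arrays hold 22690 probe sets, less 64 array controls that were not tested. Genes were named from the platform annotation, matched to the reference gene table. Intensities were taken as deposited and turned to log2(intensity + 16); fold changes on this scale understate those of dim genes. With limma 3.58.1 (R 4.3.3), group means were fitted together with a sex term over the 39 arrays (residual degrees of freedom 34), with a trend of variance on mean, 2-sided tests and Benjamini-Hochberg adjustment over 22626 probe sets. The sex by group term was fitted on 34 arrays without the severe group. Correlations used residuals after group and sex. The number of mice, 5 in the severe group, limits the precision. The fit was tested on simulated data.

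The members and the gene lists were chosen with earlier results of these data known. All member probe sets are given. Of each list, by its brightest probe set, genes that passed are named, otherwise up to 4 with the smallest p in severe against young mice. The glycine synapse partners are an exception, chosen after their values were seen: all 8 that were analysed are given. For each member the 5 genes with the highest correlation of residuals are named. Alternatives were other scaling, pseudocounts of 1 and 64, leaving out the 40% dimmest probe sets, other covariates and variance models, each sex alone, and leaving out single arrays or the 3 with cerebellar signal. The single arrays were those of all young, mild and severe mice and of middle-aged replicate 4.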

Additional observations from a re-analysis of the deposited data

Results flagged for a closer look

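In 12 groups of 5 to 9 mice (4 genes by 3 groups), 2 values stood far from the rest of their group by Dixon's test, which flags about 1 in 20 groups by chance. The Glra1 value of young replicate 8 was 4.85 on the log2(intensity + 16) scale, an intensity of 12.9, where the other 7 young mice had 60.6 to 121. The Slc6a5 value of young replicate 3 was 6.32, an intensity of 64.2, where the other 7 had 111 to 143. The dim signal of these arrays was the second and the fourth lowest of the 39. No sex by group difference of a member passed the test.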

How the results depend on the processing

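No paired analysis was possible because mouse numbers are unique and pair no mice across the groups. The 4 members were called 0 times in all 6 comparisons under all 41 alternatives, and 0 times in the F-test and between the sexes where those were run; leaving out the dimmest probe sets kept Glrb and Slc6a5 of the members, so Glra1 and Glra3 have no value there. The deposited RMA table holds no member and gave no alternative. The differences of Glra1 and Glrb against young controls, and of Slc6a5 in mild against young mice, were above 0 under every alternative that gave a value.

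The following differences and correlations took the other sign, and the cause was not tested. Those furthest from 0 as reported were Slc7a10 severe minus young (-0.51), Glra3 mild minus young (0.47) and Glra3 severe minus mild (-0.34), and they turned when 1 sex was taken alone. Glra1 severe minus mild was 0.0041 with quantile normalization, 0.0098 with arrays centred on their median, 0.082 with array weights, 0.25 in males only and 0.16 with the dim signal as a covariate. Glrb severe minus mild was 0.074 with arrays centred, 0.022 with a covariate for the array name suffix and 0.012 in females only. In females only Glra3 differed by -0.050 in mild and -0.032 in severe against young, -0.36 in mild against middle-aged and 0.018 in severe against mild mice, and Slc6a5 by -0.13 in mild against middle-aged mice. Without middle-aged replicate 4 as well, the last 2 of these against middle-aged mice were -0.40 for Glra3 and -0.15 for Slc6a5. In males only Slc6a5 differed by -0.073 in middle-aged against young and 0.30 in severe against middle-aged mice, Glra3 by 0.14 in severe against middle-aged mice and Slc7a10 by 0.13 in severe against young mice. Glra3 mild minus middle-aged was -0.018 with array weights. The r of Glra1 and Glrb was -0.019 without the 3 arrays with cerebellar signal and -0.19 with arrays centred; with the dim signal as a covariate r was -0.088 for Glra1 and Glra3 and -0.12 for Glra1 and Slc6a5. With arrays centred, 1 pair passed in place of 0.

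Single mice were left out in 23 fits: each young, mild and severe mouse in turn and, of the middle-aged mice, replicate 4 alone. The ranges for comparisons with middle-aged mice thus hardly test that group. In these fits Slc6a5 severe minus young ranged from -0.093 to 0.23, Slc6a5 severe minus middle-aged from -0.23 to 0.068, Glra3 mild minus middle-aged from -0.043 to 0.30, Glra1 severe minus mild from -0.20 to 0.11 and Glrb severe minus mild from -0.086 to 0.041. The number of glycine synapse partners called in severe against young mice ranged from 0 to 1 in these fits. It was 0 in place of 1 with arrays centred on their median, with only the 2 groups compared, with array weights, without the 3 arrays with cerebellar signal and in males only. No detection call was at hand to say how far the dim Glra3 and Glra1 probe sets stand above background.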

Other observations

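The one partner gene that was called, Slc7a10, was split by sex in a way that was seen only after its values were examined. In young mice the 4 males had 817 to 843 and the 4 females 998 to 1245, with no overlap. Among middle-aged mice the 7 males had 663 to 890 and the 10 females 699 to 960. Among mild mice the 5 males had 702 to 918 and the 4 females 707 to 796. The 4 severe females had 548 to 716, while the single severe male had 907, above all 4 young males. All middle-aged, mild and severe females thus lay below the young females. The sex difference (male minus female) in mild minus that in young mice was 0.51 on the log2(intensity + 16) scale (SE 0.16, adjusted p 0.0931 by limma), and that in middle-aged minus young 0.35 (SE 0.14, adjusted p 0.578). Neither passed the threshold, and the severe group, with 1 male, could not be tested. Of all probe sets, 15.6% in mild and 7.48% in middle-aged mice had an unadjusted p under 0.05 by limma in these tests, and 1.28% and 0% were called. The middle-aged values count replicate 4, whose sex markers went against its label, as female. How many other probe sets split the young mice by sex without overlap is not given here.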
